A study of Mus musculus with 23 samples.

Results

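The 10 genes Igf2, Igfbp2, Slc6a13, Slc13a3, Serpind1, Col1a1, Col1a2, Dcn, Lum and Aldh1a2, which are known from the fibroblasts of the brain's coverings and of its vessel sheaths, were followed array by array in the hypothalamus of db/db mice given celastrol or vehicle. They are 10 of the 18704 genes measured, and each was read by 1 probe set that names only that gene. The genes were chosen by name with earlier results known: several had been selected on their 4-day difference between celastrol and vehicle. Their values at 4 days are therefore given as a description, with no test. All mice were male db/db animals, which lack a working long form of the leptin receptor and become obese and diabetic, aged 8 weeks by the labels and kept on normal chow for 2 weeks. Vehicle mice received DMSO into the peritoneum at 25 µl per day, and were taken at 6 h, 1 day or 4 days (4 arrays each). Celastrol is a plant triterpenoid studied for its effect on food intake, and it was given in DMSO by the same route, with 3 arrays at 6 h and 4 arrays at each of 1 day and 4 days. The labels give its dose, 250 µg/kg, beside the 6 h time only. No lean strain and no group without injection enters these comparisons, so every group carries the db/db mutation and DMSO. The labels number the arrays of a group as biological replicates and do not say whether an array holds 1 mouse or several.

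The leptomeninges are thin sheets of fibroblasts that enclose the brain and follow its larger vessels into the tissue. These cells lay down collagen and small proteoglycans, transport organic acids and amino acids between the cerebrospinal fluid and blood, make retinoic acid during development, and secrete insulin-like growth factor II. In a piece of hypothalamus they are a small part of the tissue, on its ventral face and around its vessels. An array of whole tissue cannot tell fewer cells of a type from less RNA per cell.

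The 10 genes lie on 8 chromosomes, and no motif among those searched lay in all their promoter windows. The 250 bases upstream of the annotated start were available from RefSeq (build GRCm38.p6) for 7 of the 10 genes. They are shown 5′ to 3′ for the transporter and the serpin that followed each other closely (Slc6a13 and Serpind1), for a collagen gene that followed them less (Col1a2) and for Aldh1a2, with motif matches in capitals.
Slc6a13 (chr6:121300038-121300287, plus strand): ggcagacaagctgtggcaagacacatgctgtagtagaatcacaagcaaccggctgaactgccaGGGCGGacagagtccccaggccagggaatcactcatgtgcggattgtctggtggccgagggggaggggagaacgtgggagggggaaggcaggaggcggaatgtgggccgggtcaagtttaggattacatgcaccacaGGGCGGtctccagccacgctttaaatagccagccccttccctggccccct
Serpind1 (chr16:17331121-17331370, plus strand): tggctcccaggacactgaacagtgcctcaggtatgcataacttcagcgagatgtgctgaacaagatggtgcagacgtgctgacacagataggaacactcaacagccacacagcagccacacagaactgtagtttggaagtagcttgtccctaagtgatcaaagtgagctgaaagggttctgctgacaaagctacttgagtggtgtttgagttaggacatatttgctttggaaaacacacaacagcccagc
Col1a2 (chr6:4505368-4505617, plus strand): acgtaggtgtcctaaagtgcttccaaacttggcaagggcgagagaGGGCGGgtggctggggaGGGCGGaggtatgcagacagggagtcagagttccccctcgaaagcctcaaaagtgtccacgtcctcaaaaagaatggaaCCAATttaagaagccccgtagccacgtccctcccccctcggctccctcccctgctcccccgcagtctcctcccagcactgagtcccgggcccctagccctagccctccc
Aldh1a2 (chr9:71215539-71215788, plus strand): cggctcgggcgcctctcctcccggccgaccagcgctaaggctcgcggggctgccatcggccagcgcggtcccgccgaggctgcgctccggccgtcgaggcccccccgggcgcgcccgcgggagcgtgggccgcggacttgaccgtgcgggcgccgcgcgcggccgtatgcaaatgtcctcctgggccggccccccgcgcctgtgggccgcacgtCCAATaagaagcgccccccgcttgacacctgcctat
Searched on both strands were the GC box GGGCGG, the CCAAT box CCAAT, the TATA box core TATAAA and the forkhead core TAAACA, whose letters do not contain one another. For each gene the window at the outermost annotated start was searched; Igf2, Slc6a13 and Igfbp2 have further starts in the table that were not. GGGCGG lay in 4 of the 7 windows (Igfbp2, Slc6a13, Slc13a3 and Col1a2) and in 26.8% of the windows chosen in the same way for 19827 genes. CCAAT lay in 2 of the 7 (Col1a2 and Aldh1a2) and in 34.4% of those windows. TATAAA and TAAACA lay in 0 of the 7, against 14.9% and 13.1%. Over all 32851 windows of that length, further starts included, the shares were 32.7% for GGGCGG, 33.8% for CCAAT, 12.4% for TATAAA and 12% for TAAACA. The Serpind1 window, at 48% G and C, held none of the 4 motifs, and the Aldh1a2 window, at 77.6%, held a single CCAAT match. A match is a string of letters and not a shown binding site.

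Values are log2 expression after RMA, so a step of 1 is a doubling, and levels of different genes are not compared because each probe set has its own brightness. The 23 arrays had medians between 8.57 and 8.64, and any 2 arrays correlated at 0.9905 or more over all genes. Among the defining genes of the labelled tissue, the neuropeptide genes Npy and Hcrt read at least 11.15 and 12.58 in every array, and Pomc ranged from 7.89 to 10.84. Rax, a transcription factor of tanycytes, read 7.14 to 7.83, below the array medians. The mean of 8 pituitary markers ran from 7.04 to 9.18 over the arrays and that of 13 choroid plexus markers from 7.31 to 7.67. For the meningeal genes, 4 vehicle arrays stood apart: replicates 1, 2 and 3 at 4 days and replicate 4 at 6 h. Results that rest on them are given with and without them.

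**Figure D1:**
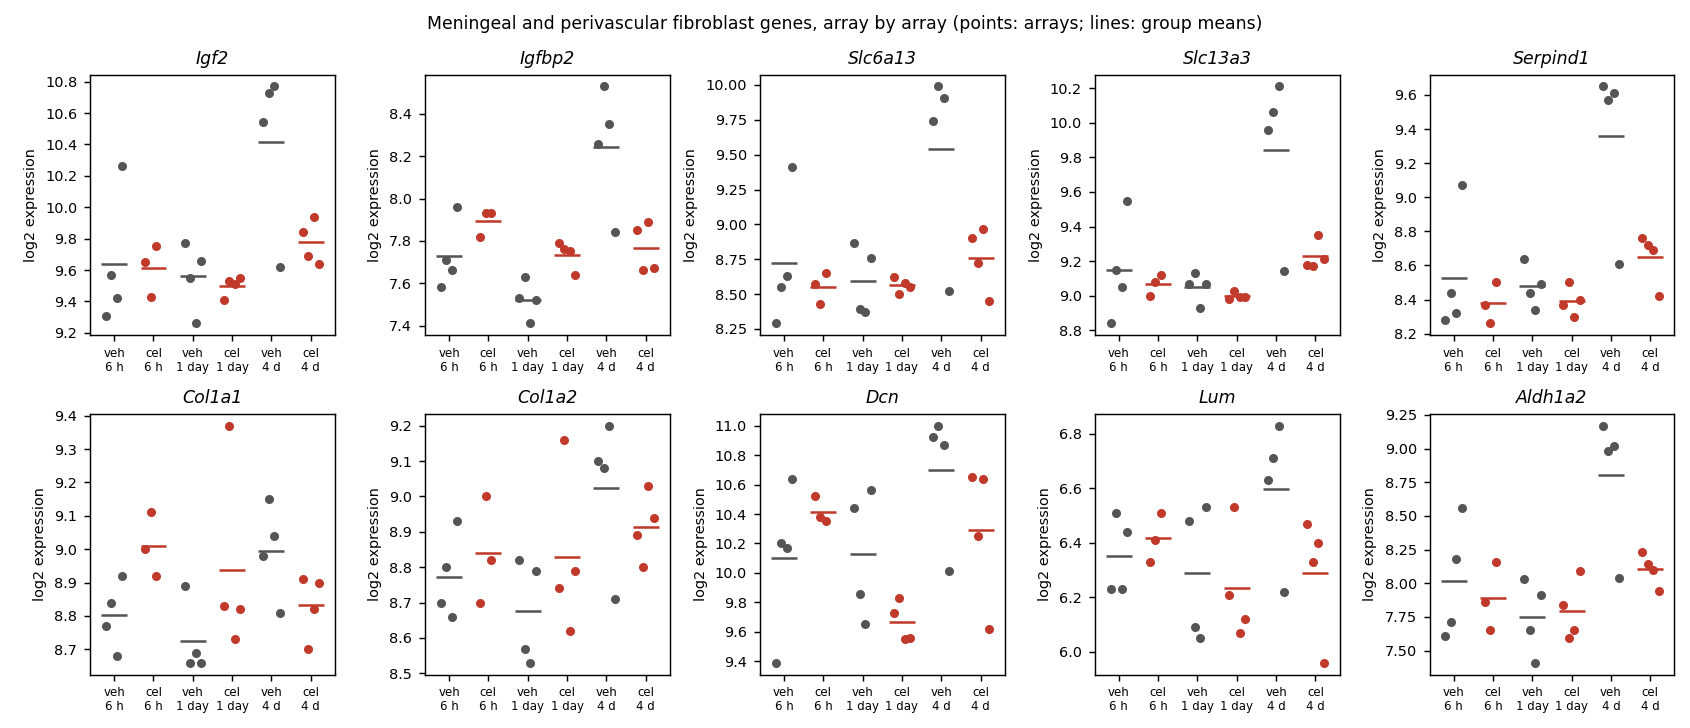
Each panel plots log2 expression (vertical axis, scale differing by panel) of 1 gene in the 6 groups, with 1 point per array and a line at each group mean; vehicle is dark grey and celastrol red. In most panels 3 of the 4 vehicle arrays of 4 days sit above the rest and the remaining one lies among the celastrol arrays, while Col1a1 and Col1a2 have their highest or near-highest points elsewhere as well.

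Slc6a13 and Slc13a3 are membrane transporters of the leptomeninges and of a few other barriers. Slc6a13 carries GABA and taurine, and Slc13a3 carries dicarboxylates such as succinate with sodium. Slc6a13 read 9.74, 9.99, 9.91 and 8.52 in the 4 vehicle arrays of 4 days and 8.90, 8.72, 8.97 and 8.45 in the 4 celastrol arrays of that time. Vehicle replicates 1 to 3 were above every celastrol array, and replicate 4 was within the celastrol range, so the groups overlapped. At 6 h the vehicle arrays read 8.29, 8.55, 8.63 and 9.41 and the celastrol arrays 8.57, 8.43 and 8.65. At this time it was vehicle replicate 4 alone that stood above the rest. At 1 day the vehicle arrays read 8.87, 8.39, 8.37 and 8.76 and the celastrol arrays 8.62, 8.50, 8.58 and 8.55, and the celastrol values lay inside the vehicle range. The 4-day difference, celastrol minus vehicle, was -0.78 on the log2 scale (95% confidence interval -1.27 to -0.29), or 1.72-fold lower. At 6 h it was -0.17 (SE 0.257, adjusted p = 0.765 in the limma fit) and at 1 day -0.03 (SE 0.238, adjusted p = 0.971 in the same fit).

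Slc13a3 followed the same arrays. At 4 days it read 9.96, 10.06, 10.21 and 9.14 with vehicle and 9.18, 9.17, 9.35 and 9.21 with celastrol. Vehicle replicate 4 was lower than all 4 celastrol arrays and the other vehicle arrays were higher than all of them. The difference of the means was -0.62 (95% confidence interval -0.93 to -0.30). At the earlier times the gene stayed between 8.84 and 9.15 in every array except vehicle replicate 4 of 6 h, which read 9.55.

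Among 8 other transporters of the same families, Slc13a4 and Slc6a12 had the lowest 4-day differences. Slc13a4, a sulfate transporter, differed by -0.87 (SE 0.224, adjusted p = 0.311, limma), and Slc6a12, a betaine and GABA transporter, by -0.70 (SE 0.234, adjusted p = 0.442, limma). The creatine transporter Slc6a8 and the taurine transporter Slc6a6 belong to the same list, and its 4-day split was 4 higher and 4 lower, with 0 past the threshold of adjusted p under 0.05.

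Igf2 encodes insulin-like growth factor II, a growth factor that the adult leptomeninges secrete into cerebrospinal fluid, and Igfbp2 encodes a binding protein that holds IGFs in the extracellular space. Igf2 read 10.54, 10.73, 10.77 and 9.62 in the vehicle arrays of 4 days and 9.84, 9.69, 9.94 and 9.64 in the celastrol arrays. Replicate 4 of vehicle was below all celastrol arrays and the other vehicle arrays above them. At 6 h vehicle gave 9.31, 9.57, 9.42 and 10.26 and celastrol 9.65, 9.43 and 9.75. At 1 day vehicle gave 9.77, 9.55, 9.26 and 9.66 and celastrol 9.41, 9.53, 9.51 and 9.55. The 1-day celastrol arrays lay inside the vehicle range. The 4-day difference was -0.64 (95% confidence interval -1.04 to -0.23), and those at 6 h and 1 day were -0.03 and -0.05 (adjusted p = 0.957 and 0.938, limma).

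Igfbp2 gave 8.26, 8.53, 8.35 and 7.84 with vehicle at 4 days and 7.85, 7.66, 7.89 and 7.67 with celastrol, a difference of -0.48 (95% confidence interval -0.69 to -0.27). Among the 10 genes it was the exception at vehicle replicate 4, which lay above the celastrol mean. At 1 day its order was the other way round. Vehicle arrays read 7.53, 7.63, 7.41 and 7.52 and celastrol arrays 7.79, 7.76, 7.75 and 7.64, so the groups did not overlap, by a gap of 0.0087. The difference was 0.21 (SE 0.102, 95% confidence interval 0.00 to 0.42), with adjusted p = 0.399 in limma's fit over all genes. At 6 h vehicle gave 7.58, 7.71, 7.66 and 7.96 and celastrol 7.82, 7.93 and 7.93, a difference of 0.16 with adjusted p = 0.479 (limma).

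Of 15 other IGF ligands, receptors and binding proteins, 9 were lower and 6 higher at 4 days (median -0.04), and 0 passed. Igfbp6, a binding protein with a preference for IGF2, differed by -0.30 at 4 days, with all celastrol arrays below all vehicle arrays (SE 0.0857, adjusted p = 0.343, limma). At 1 day Igfbp6 differed by 0.25, with all celastrol arrays above all vehicle arrays (SE 0.0857, adjusted p = 0.254, limma). Neither passed, and at both times its sign was that of Igfbp2. All celastrol arrays were below all vehicle arrays at 4 days for 1 of the 15 (1.63% of all genes). They were all above at 1 day for 3 of the 15 (6.44% of all genes). Igf1 differed by -0.10 at 4 days (adjusted p = 0.84, limma).

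Serpind1 encodes heparin cofactor II, a serpin that inhibits thrombin once bound to dermatan sulfate or heparin. The vehicle arrays read 9.65, 9.57, 9.61 and 8.61 at 4 days, against 8.76, 8.72, 8.69 and 8.42 in the celastrol arrays. Vehicle replicates 1 to 3 were close to each other and above all celastrol arrays, and replicate 4 lay among the celastrol arrays. The difference of the means was -0.71 (95% confidence interval -1.07 to -0.35). At 6 h vehicle gave 8.28, 8.44, 8.32 and 9.07 and celastrol 8.37, 8.26 and 8.50. At 1 day vehicle gave 8.64, 8.44, 8.34 and 8.49 and celastrol 8.37, 8.50, 8.30 and 8.40. Neither of those differences, -0.15 and -0.08, passed (adjusted p = 0.717 and 0.878, limma).

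Of 8 other genes in a list of serpins, thrombin and its receptors, 5 were lower and 3 higher at 4 days with a median of -0.02, and 0 passed. Serping1, the C1 inhibitor, had a difference of -0.50 (SE 0.204, adjusted p = 0.582, limma). F2, which is prothrombin, differed by 0.12 and Thbd, thrombomodulin of endothelium, by -0.23.

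Aldh1a2 makes retinoic acid from retinaldehyde and is a marker of meningeal fibroblasts. At 4 days vehicle arrays read 9.17, 8.98, 9.02 and 8.04 and celastrol arrays 8.23, 8.14, 8.10 and 7.94. Replicate 4 of vehicle, alone of the 4, lay inside the celastrol range. At 6 h vehicle gave 7.61, 7.71, 8.18 and 8.56 and celastrol 7.86, 7.65 and 8.16. At 1 day vehicle gave 8.03, 7.65, 7.41 and 7.91 and celastrol 7.84, 7.59, 7.65 and 8.09, with the ranges overlapping at both times. The 4-day difference was -0.70 (95% confidence interval -1.13 to -0.27), and those at 6 h and 1 day were -0.13 and 0.04 (adjusted p = 0.804 and 0.956, limma). Aldh1a2 had the widest range of the 10, 1.76 log2 units or 3.38-fold over the 23 arrays. Of 16 other retinoic acid genes, 10 were lower at 4 days (median -0.04), and 0 passed. Crabp2, a retinoic acid binding protein, differed by -0.31 (SE 0.11, adjusted p = 0.483, limma), and Rbp4, the plasma retinol carrier, by -0.25 (SE 0.111, adjusted p = 0.637, limma). Aldh1a1, another enzyme of retinoic acid synthesis, differed by -0.10 (adjusted p = 0.943, limma).

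Dcn and Lum encode decorin and lumican, small leucine-rich proteoglycans that bind collagen fibrils. They are neighbouring protein-coding genes on chromosome 10. Dcn gave 10.92, 11.00, 10.87 and 10.01 with vehicle at 4 days and 10.65, 10.25, 10.64 and 9.62 with celastrol, a difference of -0.41 (95% confidence interval -0.93 to 0.11). Vehicle replicate 4 was below 3 of the 4 celastrol arrays. Lum gave 6.63, 6.71, 6.83 and 6.22 with vehicle and 6.47, 6.33, 6.40 and 5.96 with celastrol, a difference of -0.30 (95% confidence interval -0.58 to -0.03). Dcn at 6 h read 9.39, 10.20, 10.17 and 10.64 with vehicle and 10.52, 10.38 and 10.35 with celastrol. At 1 day it read 10.44, 9.86, 9.65 and 10.56 with vehicle and 9.73, 9.83, 9.55 and 9.56 with celastrol.

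Dcn had the largest difference of the 10 genes between the celastrol groups of the earlier times. Between 6 h and 1 day with celastrol it differed by -0.75 (SE 0.273, 95% confidence interval -1.31 to -0.18), and all 4 arrays of 1 day lay below all 3 of 6 h, by a gap of 0.52. The adjusted p in limma over all genes was 0.33, so it did not pass; fitted on those 7 arrays alone it did (adjusted p = 0.0084, limma), 1 of the 10 genes beside 9 of 18704 in that fit (percent called 0.0481). With vehicle the same step was 0.03 (adjusted p = 0.975, limma). The celastrol difference at 1 day minus that at 6 h was -0.77 for Dcn (adjusted p = 1, limma), so it was not shown to differ between the times. Between the same celastrol groups all 8 pituitary markers were lower at 1 day than at 6 h, with a median of -0.38. Between the vehicle groups, where Dcn differed by 0.03, all 8 were lower at 1 day too, with a median of -0.31. Groups did not overlap, all lower, for 3 of the 8 with celastrol (6.39% of all genes) and 0 with vehicle (3.61%). Among the 8, Cga averaged 9.95 at 6 h and 7.69 at 1 day with celastrol, and 9.08 and 8.58 with vehicle. Prl averaged 7.49 and 6.37 with celastrol, and 8.78 and 6.85 with vehicle. The part of the pituitary markers in the Dcn difference was not tested.

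Col1a1 and Col1a2 encode the chains of type I collagen. They varied least of the 10 genes, over a range of 0.71 and 0.67 log2 units. Col1a1 at 4 days gave 8.98, 9.15, 9.04 and 8.81 with vehicle and 8.91, 8.70, 8.82 and 8.90 with celastrol, a difference of -0.17 (95% confidence interval -0.38 to 0.05). Col1a2 gave 9.10, 9.08, 9.20 and 8.71 with vehicle and 8.89, 8.80, 9.03 and 8.94 with celastrol, a difference of -0.11 (95% confidence interval -0.33 to 0.12). The highest Col1a1 value, 9.37, was in celastrol replicate 2 of 1 day, beside 8.83, 8.73 and 8.82 in the other celastrol arrays of that time. The same array held 9.16 for Col1a2.

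At 6 h, Col1a1 read 8.77, 8.84, 8.68 and 8.92 with vehicle and 9.00, 9.11 and 8.92 with celastrol. The groups did not overlap, by a gap of 0.003. The difference was 0.21 (SE 0.11, adjusted p = 0.379, limma), the lowest adjusted p of the 10 genes at 6 h. At 1 day it was 0.21 too (SE 0.102, adjusted p = 0.402, limma), and without celastrol replicate 2 it was 0.07. Of 8 other small leucine-rich proteoglycans, 7 were lower at 4 days (median -0.16), and 0 passed. Fmod, fibromodulin of collagen fibrils, differed by -0.86 (SE 0.264, adjusted p = 0.379, limma) and Ogn, osteoglycin, by -0.79 (SE 0.293, adjusted p = 0.504, limma). Of 16 genes that fold, trim and cross-link collagen, 9 were lower and 7 higher, with a median of -0.02.

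**Figure D2:**
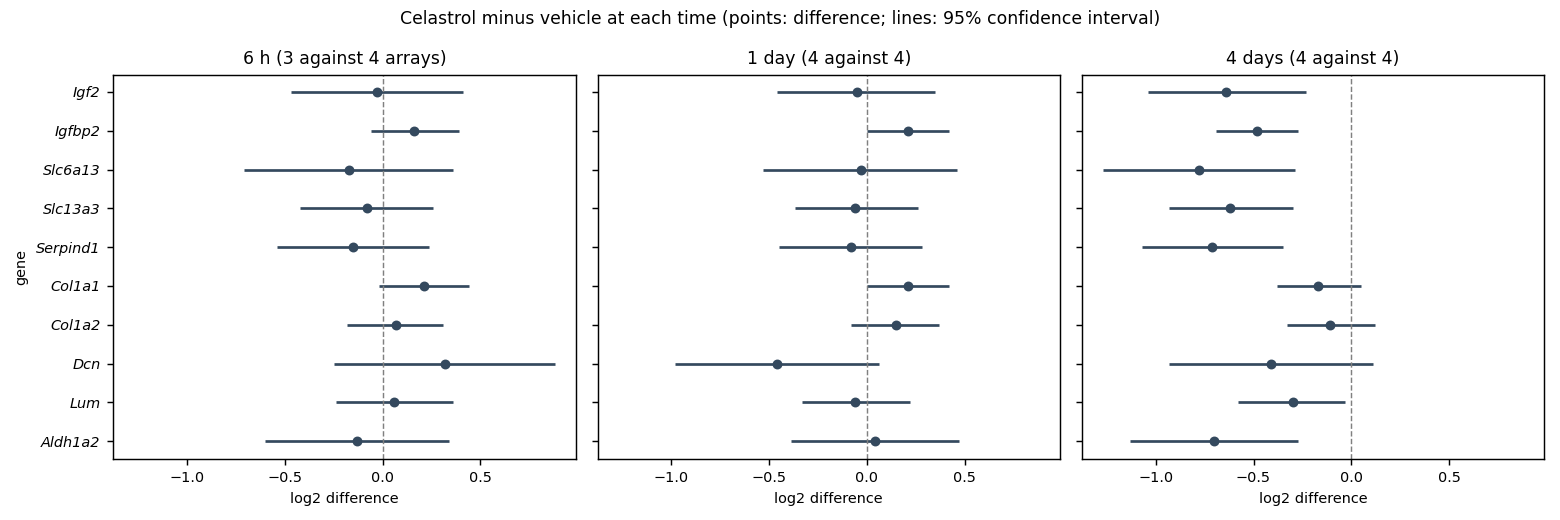
Each panel plots the log2 difference, celastrol minus vehicle, of the 10 genes at 6 h, 1 day or 4 days; points are differences of means and lines the 95% confidence intervals of the limma fit. At 4 days, where the genes were chosen and the intervals are no test, the points run from -0.78 to -0.11; at 6 h they run from -0.17 to 0.32 and at 1 day from -0.46 to 0.21.

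Over the whole set, 0 of the 10 genes passed at 6 h, where 0 of 18704 genes did (percent called 0; 14.8% at unadjusted p under 0.05), with 5 higher and 5 lower and a median of 0.02. One gene, Col1a1, had celastrol arrays all above vehicle arrays, as did 5.97% of all genes, and 0 members were the other way, as were 4.29%. Without vehicle replicate 4 of 6 h, 0 of the 10 were lower and the median was 0.11. At 1 day 0 of the 10 passed (3 of 18704, percent called 0.016; 12.5% at unadjusted p under 0.05), with 4 higher and 6 lower and a median of -0.04. Igfbp2 had celastrol arrays all above vehicle arrays, as did 6.44% of all genes; 0 of the 10 had all below, against 4.56%. Without vehicle replicate 1 of 1 day 3 of the 10 were lower. With any 1 array left out, the lowest adjusted p among the 10 genes was 0.255 at 6 h and 0.271 at 1 day (limma).

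At 4 days all 10 were lower with celastrol, with a median of -0.55 against -0.00 over all genes, and 0 of the 10 had groups that did not overlap (1.63% of all genes did so lower, 1.87% higher). Over all genes 0 passed (percent called 0; 7.29% at unadjusted p under 0.05). In vehicle replicates 1 to 3 the 10 genes were above all 4 celastrol arrays of 4 days, and 8 of them were above all 20 other arrays, the exceptions being Col1a1 and Col1a2. Of 18694 other genes, 112 (0.599%) were above all 20 in those arrays, among them 14 of the 28 other meningeal genes. Those arrays were singled out for high values of the 10 genes, and the gene lists were chosen with earlier results known. The counts are therefore a description and no test. Vehicle replicate 4 lay inside the celastrol range for 7 of the 10 and below the celastrol mean for 9. Without it the median difference was -0.75, and 39 genes of all passed in place of 0. Without the 4 vehicle arrays that stood apart, which leaves a single vehicle array at 4 days assumed to vary as the other groups do, 1 of the 10 was lower and the median was 0.08. Against all 12 vehicle arrays of the 3 times, the median was -0.09.

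**Figure D3:**
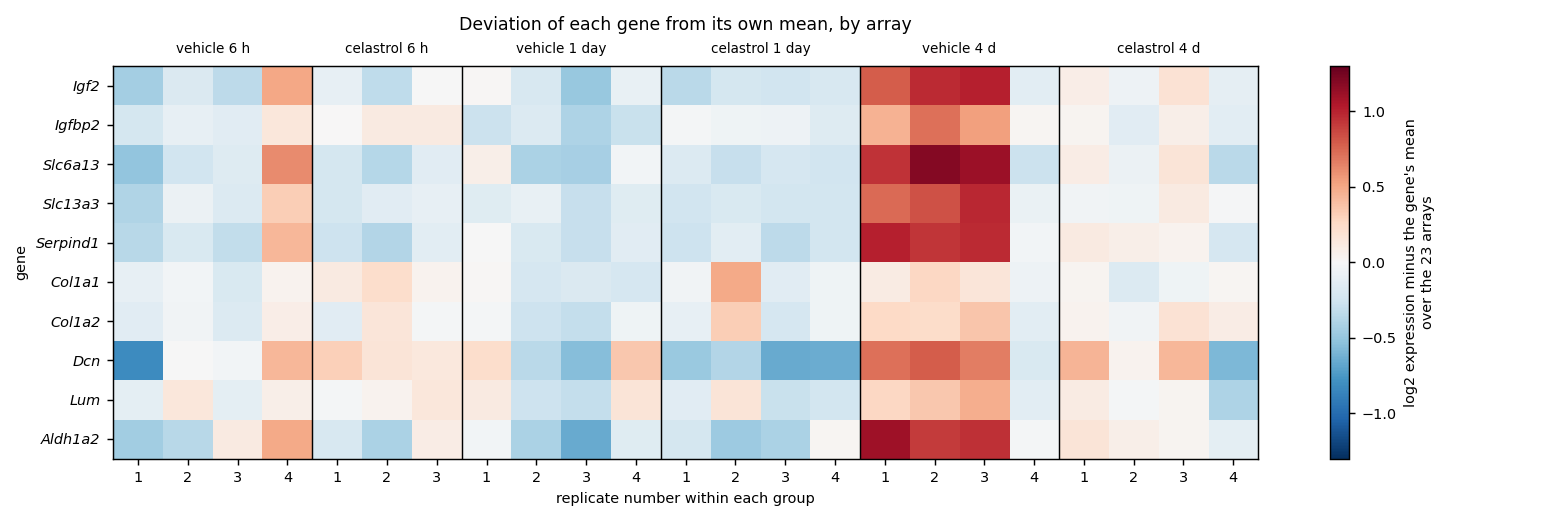
The heat map plots, for each gene (rows) and array (columns, ordered by group and replicate number), the log2 value minus that gene's mean over the 23 arrays, from blue (lower) to red (higher). The columns of vehicle at 4 days, replicates 1 to 3, are red for all 10 genes, and that of replicate 4 is near 0 or blue.

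Among vehicle groups, which use the same 4-day arrays, the 10 genes were all higher at 4 days than at 6 h, by 0.19 to 0.83 with a median of 0.65, and 0 of the 10 had groups that did not overlap (6.6% of genes were all higher and 4.93% all lower). Against 1 day the differences were 0.27 to 1.05 with a median of 0.76. Igfbp2, Slc13a3 and Aldh1a2 had all 4-day arrays above all 1-day arrays, 3 of 10, against 13.2% of all genes (7.63% all below). The gap was 0.21 for Igfbp2 but 0.015 for Slc13a3 and 0.0096 for Aldh1a2. The largest of the 10 differences of means, that of Aldh1a2, was 1.05 (95% confidence interval 0.62 to 1.49). Without the arrays that stood apart, which leaves 1 vehicle array at 4 days, 8 of 10 were higher than at 6 h (median 0.11) and 7 of 10 than at 1 day (median 0.07), with a median of 0.04 over all genes in each. Between 6 h and 1 day, which no 4-day array enters, 9 of 10 were lower at 1 day in vehicle, the median was -0.09, and 0 passed (percent called 0; 10.7% at unadjusted p under 0.05; 3.61% of genes all lower and 2.19% all higher). Its lowest adjusted p was 0.475 (Igfbp2, -0.20, limma), and leaving out vehicle replicate 4 of 6 h brought the median to 0.00. With celastrol, 8 of 10 were lower at 1 day than at 6 h with a median of -0.09 and 0 passed (6 of 18704, percent called 0.0321; 10.1% at unadjusted p under 0.05). Dcn and Igfbp2 had groups that did not overlap, both lower, by gaps of 0.52 and 0.024. That was 2 of 10 against 6.39% of all genes (5.07% all higher). For the celastrol difference at 1 day against 6 h, 0 of the 10 passed (percent called 0; 3.66% at unadjusted p under 0.05).

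The spread over arrays with vehicle is given with and without the arrays that stood apart. Those arrays were picked for high values of these genes and left out of vehicle alone. Leaving them out could therefore not widen the vehicle range. The range over the 12 vehicle arrays exceeded that over the 11 celastrol arrays for 9 of the 10 genes, as it did for 62% of other genes; Col1a1 was the exception, at 0.49 against 0.67. Slc6a13 spanned 1.70 with vehicle and 0.54 with celastrol, and Igf2 1.51 and 0.53. Without the 4 vehicle arrays that stood apart, the range over the other 8 exceeded that of celastrol for 4 of the 10 genes (44% of other genes). Slc6a13 then spanned 0.57 with vehicle and Igf2 0.51. The SD over arrays of each member exceeded that of 93% (Col1a1) to 99.9% (Slc6a13, Dcn and Aldh1a2) of all genes. These are descriptions, as the members were picked knowing that the 4-day vehicle arrays were high. At 6 h, 7 of the 10 genes had their highest value of the 15 arrays of 6 h and 1 day in vehicle replicate 4, the exceptions being Col1a1, Col1a2 and Lum.

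A gene's pattern over arrays was measured against the others by Pearson correlation, as a description, since all points share arrays and the 4 arrays that stood apart carry much of it. Over the 45 pairs of genes the median r was 0.737 over 23 arrays, 0.468 (from -0.145 to 0.817) without those 4, and 0.509 over the 15 arrays of 6 h and 1 day. The growth factor, transporters and serpin formed the tightest group: Igf2 and Slc6a13 gave 0.975 over 23 arrays and 0.91 over 15. Dcn and Lum gave 0.83 and 0.72, and Col1a1 and Col1a2 0.77 and 0.86. Col1a1 was the least like the rest, with r of 0.511 to the mean of the other 9 genes, and 0.257 without the 4 arrays, against 0.952 and 0.849 for Igf2.

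**Figure D4:**
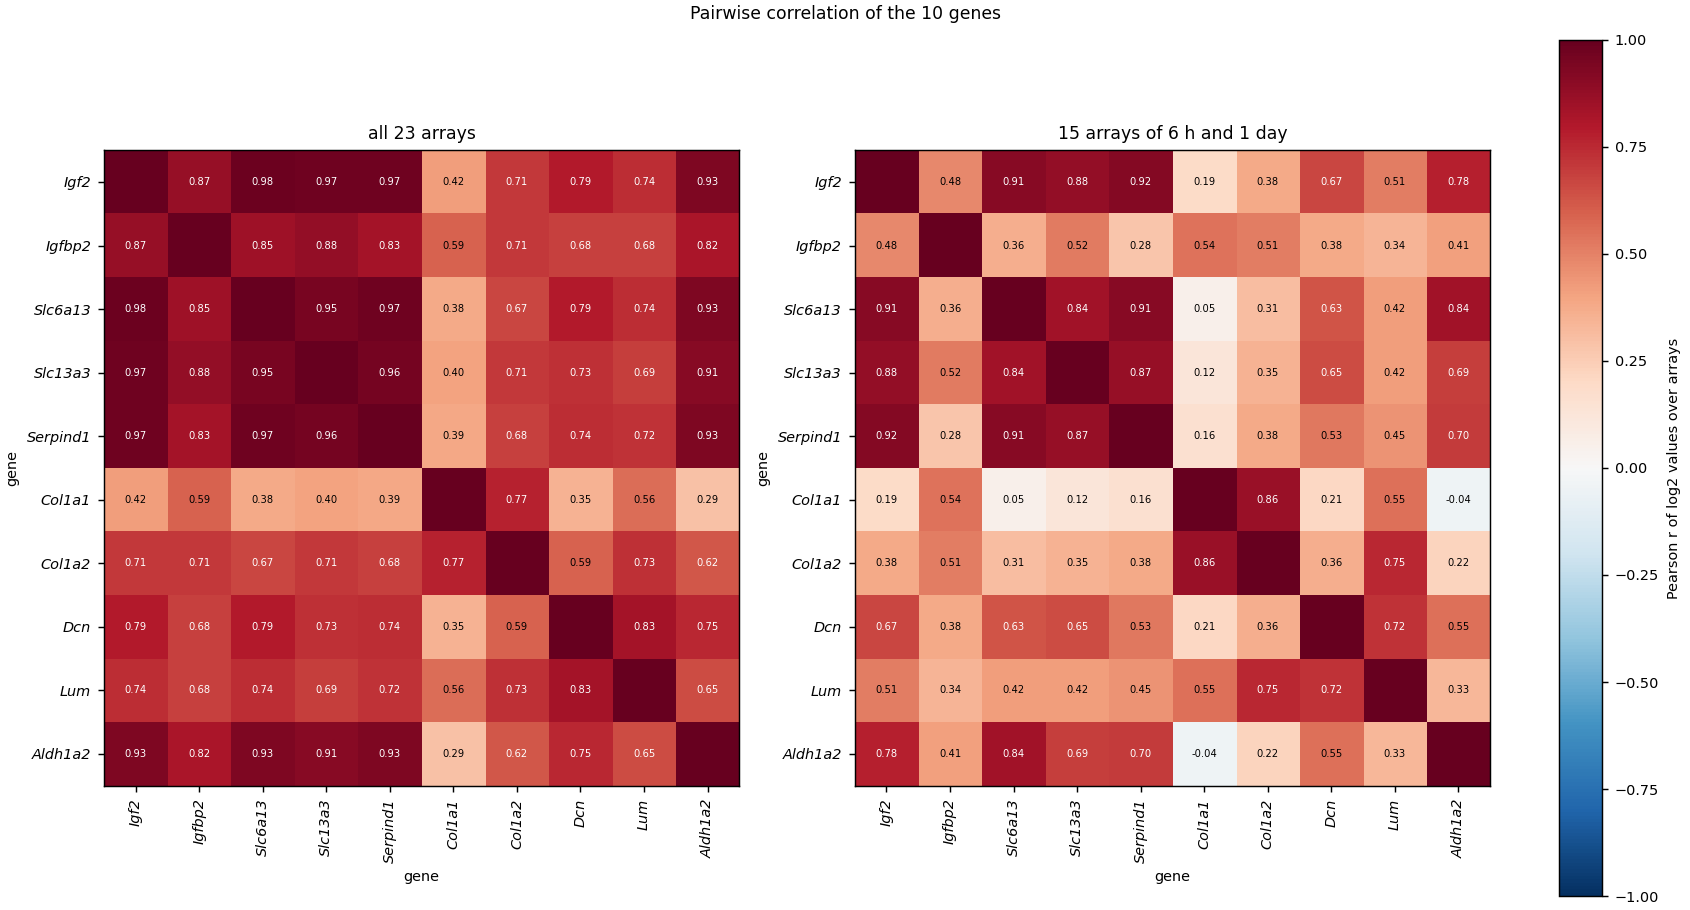
Both panels show Pearson r between each pair of the 10 genes (rows and columns), over all 23 arrays on the left and over the 15 arrays of 6 h and 1 day on the right, from blue (negative) to red (positive) with r printed in each cell. Igf2, Slc6a13, Slc13a3 and Serpind1 form a block that stays red on the right, whereas the collagen genes correlate with each other and less with that block.

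Averaged after dividing each gene's deviations by its SD, the 10 genes gave each array a level in SD units. It was 1.68, 1.98 and 1.99 in vehicle replicates 1, 2 and 3 of 4 days, -0.32 in replicate 4, 0.78 in vehicle replicate 4 of 6 h, and -1.17 at the lowest, in vehicle replicate 3 of 1 day. The 12 other genes most like it over the 23 arrays were Slc6a20a, Fmod, Itih2, Mpzl2, Aebp1, Osr1, Islr, Slc22a6, Kcnj13, Slc13a4, Cdh1 and Slc6a12, with r from 0.916 to 0.944. Of these, 5 belong to the 28 other meningeal genes, Kcnj13 to the choroid plexus list and Fmod to the proteoglycans. Over the 15 arrays of 6 h and 1 day, 5 of the 12 were again among the 12 most like, and Islr, an immunoglobulin-repeat gene of fibroblasts, led with 0.879. Each gene was then set against the genes outside the 10. Of those, Slc6a13 was nearest to Slc6a20a (0.979), an amino acid transporter of the meninges. Serpind1 was nearest to Itih2 (0.974), a hyaluronan-binding serum protein chain, and Igf2 to Fmod (0.973). Aldh1a2 was nearest to Gpr182 (0.96), Dcn to Efemp1 (0.918), Igfbp2 to Slc22a6 (0.893), an organic anion transporter, and Slc13a3 to Slc13a4 (0.962). Col1a2 was nearest to Acan (0.817), which encodes aggrecan, and Col1a1 to 4930445K14Rik (0.841). Lum was nearest to Cga (0.83), the subunit shared by pituitary glycoprotein hormones.

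The 28 other meningeal genes, a list that holds matrix genes, transcription factors and transporters, averaged 8.51 to 8.60 in the 3 high vehicle arrays of 4 days and 7.86 to 8.30 in the other 20 arrays. Their mean followed that of the 10 genes with r of 0.905 without the 4 arrays that stood apart and 0.934 over the 15 arrays of 6 h and 1 day. At 4 days 26 of the 28 were lower, with a median of -0.26, and 0 passed. Tbx18, a transcription factor of mural and meningeal cells, had all celastrol arrays below all vehicle arrays (-0.43, SE 0.0878, adjusted p = 0.175, limma). So did 2 of the 28 in all, and 1.63% of all genes, and 0 of the 28 had all above (1.87%). Itih2 differed by -0.79 (SE 0.195, adjusted p = 0.306, limma) and Slc22a6 by -0.53 (SE 0.137, adjusted p = 0.311, limma). At 6 h 19 of 28 were lower (median -0.03) and at 1 day 15 (median -0.01), with 0 past the threshold at each time. Col6a2 and Col6a1, chains of collagen VI, and Col3a1 differed by 0.20, 0.19 and 0.20 at 1 day, each with all celastrol arrays above all vehicle arrays (adjusted p = 0.278, 0.305 and 0.356, limma). At 1 day 4 of the 28 had all above, against 6.44% of all genes, and 0 had all below, against 4.56%.

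Markers of neighbouring tissues moved with these genes to different degrees. The 14 pericyte and smooth muscle markers averaged 8.60 to 8.79 in the vehicle arrays of 4 days and 8.57 to 8.67 in the celastrol arrays. In vehicle replicates 1 to 3 of 4 days their mean was 8.71, 8.76 and 8.79, above every other array (8.68 at most). Their r to the 10 genes was 0.669 without the 4 arrays. The 13 choroid plexus markers averaged 7.51 to 7.67 with vehicle and 7.46 to 7.63 with celastrol at 4 days, 6 of 13 were lower, and r was 0.602. Of its defining genes Ttr, transthyretin, differed by 0.46, opposite in sign to the 10 genes, and Kcnj13 by -1.02 (adjusted p = 0.671 and 0.326, limma). Ttr ranged from 7.17 to 8.53 over the arrays. Over the 23 arrays the genes of that list correlated with the mean of the 10 at r from -0.375 (F5) to 0.926 (Kcnj13), with -0.0377 for Ttr. The 8 pituitary markers averaged 7.38 to 8.92 with vehicle at 4 days and 7.31 to 7.64 with celastrol, 7 of 8 were lower, and r was 0.572. Cga read 10.26, 10.56, 10.27 and 7.97 in those vehicle arrays and 10.07, 8.67, 10.17 and 7.09 in the celastrol arrays, so it was high in 3 vehicle arrays and in celastrol replicates 1 and 3. Vehicle replicate 2 of 6 h was high in Cga (10.87) with the meningeal genes at -0.25 SD units. Vehicle replicate 4 of 6 h was high in both, with Cga at 10.70 and the meningeal genes at 0.78 SD units. The 12 border macrophage and leukocyte markers averaged 6.71 to 6.86 with vehicle and 6.62 to 6.74 with celastrol at 4 days, with r of 0.562. The 12 astrocyte markers averaged 11.32 to 11.35 and 11.32 to 11.38, and r was 0.0823. Over the 15 arrays of 6 h and 1 day r was 0.792 for the pituitary markers and 0.731 for the pericyte and smooth muscle markers. It was 0.696 for the border macrophage and leukocyte markers, 0.634 for the choroid plexus markers and 0.247 for the astrocyte markers. The part of these tissues in the differences of the 10 genes was not tested.

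**Figure D5:**
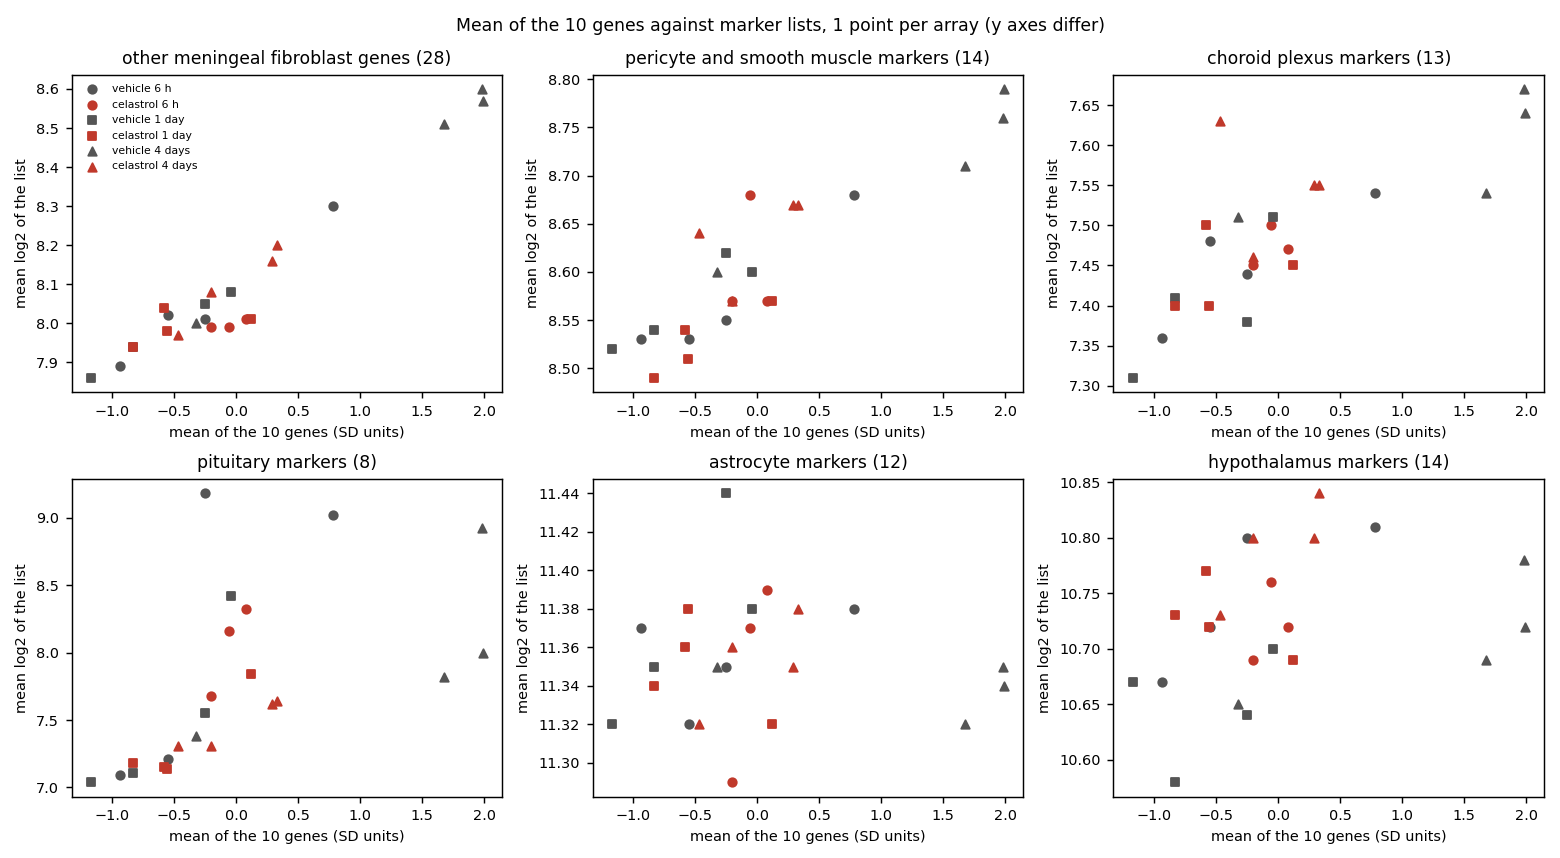
Each panel plots, for every array, the mean log2 value of a marker list (vertical axis, scale differing by panel) against the mean of the 10 genes in SD units (horizontal axis); colour marks treatment and shape marks time. The 3 high vehicle arrays of 4 days lie at the upper right for the other meningeal genes and for the pericyte and smooth muscle markers. They lie within the vertical range of the other arrays for astrocyte and hypothalamus markers.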

How the data were processed

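The series measured hypothalamus RNA of 23 db/db mouse samples on Affymetrix WT arrays, in 6 groups of 3 or 4. The authors' deposited values are log2 expression per probe set, made by RMA per the submitters' processing notes, which normalizes arrays to a common distribution; no source here names the RMA software or the array annotation release. Of 23492 probe sets, 20228 name 1 gene, 1399 several and the rest none; per gene the brightest of those naming 1 gene was kept, giving 18704 genes. Current symbols came from RefSeq tables.

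Differences were fitted in limma 3.58.1 (R 4.3.3) as 6 group means over all 23 arrays with eBayes, 17 residual degrees of freedom, and Benjamini-Hochberg adjustment over all genes; a gene passed at adjusted p under 0.05. Intervals are 95%. Fits were tested on simulated data. Replicate numbers in the labels did not pair the arrays: deviations of the 55 same-number pairs correlated at a median of -0.007, and 9 exceeded 0.1. Precision is limited by the 3 or 4 arrays of a group. The members and gene lists were chosen with earlier results of these data known. Named besides the members were the 12 genes nearest in pattern, the nearest gene of each member, and up to 3 genes of lowest p, and markers, from each list. Alternatives covered normalization, variance model, array weights, a filter on dim genes, the groups fitted, a replicate block and each array left out; the arrays that stood apart were left out, and all vehicle arrays used as control, after seeing the data.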

Additional observations from a re-analysis of the deposited data

Results flagged for a closer look

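In groups of 4, a value was listed when its gap to the nearest other array, as a share of the group's range, was over Dixon's 95% critical value, which chance alone exceeds in about 1 of 20 groups. Of 50 gene and group pairs looked at, 6 met this. In the vehicle group of 4 days replicate 4 lay far below the other arrays for Serpind1 (0.926 of the range), Dcn (0.874), Slc6a13 (0.833) and Aldh1a2 (0.831). These 4 genes read the same array, so they are not separate observations. For Col1a1 replicate 1 of vehicle at 1 day lay above the others (0.861), as did replicate 2 of celastrol at 1 day (0.85), which also held the highest celastrol value of Col1a2 at that time.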

How the results depend on the processing

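Under the alternatives 2447 of 2542 member values were counted as unchanged. Where a difference was tested, unchanged meant the same direction and the same side of the threshold. Differences given without a test had no side of a threshold. Among those, some values that kept their sign but moved in size, as for Igfbp2, were counted as changed. Among the tested, 1 member value passed in place of none. It was Dcn with celastrol, 1 day minus 6 h, fitted on the groups compared alone (adjusted p = 0.0084, limma). In that fit 1 of 10 members was called, beside 9 of all genes. Of the member differences that were tested and did not pass, 77 values changed sign. Lum dropped out with the lowest tercile of genes. Array medians differ little: the median of all genes moved by less than 0.1 in all settings other than leaving out 1 array, where it was not recorded.

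Counts of all genes passing were small and moved. At 6 h, 0 became 3 without the 4 arrays that stood apart, and 0 to 2 when leaving out 1 array. At 1 day, 3 became 1 with quantile normalisation, 0 with trend and robust eBayes, 406 with array weights, 0 without the 4 arrays, and 0 to 7 when leaving out 1 array. At 4 days, 0 became 39 with all 12 vehicle arrays as control, and 0 to 39 when leaving out 1 array. For vehicle at 1 day against 6 h, 0 became 4 with array weights and 0 to 10 when leaving out 1 array. For celastrol at 1 day against 6 h, 6 became 20 with array weights, 0 without the lowest tercile (fewer genes), and 0 to 8 when leaving out 1 array. For the difference of effects leaving out 1 array gave 0 to 1. The replicate block, on numbers that did not pair the arrays, changed the counts at 1 day from 3 to 1, at 4 days from 0 to 1 and for celastrol between 6 h and 1 day from 6 to 11. The cause of these moves was not tested.

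Members lower at 6 h were 5, 0 without the 4 arrays and 0 to 5 leaving out 1 array; at 1 day 6, or 3 to 7; at 4 days 10, and 1 without the 4 arrays. The 4-day median of -0.55 became 0.08 without the 4 arrays and -0.09 with all vehicle arrays as control. The members' median r of 0.737 became 0.509 over the 15 arrays of 6 h and 1 day and 0.468 without the 4 arrays. Of the 12 nearest genes, 7 were shared after quantile normalisation and 5 over 15 arrays.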
